A study of Danio rerio with 6 samples.

Results

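The regions described are the 54 Smad2 peaks and 171 Eomesa peaks on chromosome 25 of the zebrafish, taken from lists of 898 Smad2 and 6378 Eomesa peaks. They were selected by their chromosome alone, so that 225 of 7276 regions are covered. Within them, a stretch from 36105765 to 37404344 on the Zv9 build (36.1 to 37.4 Mb) was set apart because it holds most of the Smad2 peaks, and it runs from the first to the last group of at least 3 Smad2 peaks that share no base with an Eomesa peak and follow each other within 10 kb. Its density of Smad2 peaks is therefore what chose it and is given as a description only.

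The data come from chromatin immunoprecipitation with sequencing (ChIP-seq) on wild-type AB embryos, which were grown in E3 medium to the high-sphere stage, a blastula stage, and fixed in formaldehyde. There were 3 groups, chromatin precipitated with a monoclonal antibody to Smad2, chromatin precipitated with a polyclonal antibody to the whole Eomesa protein, and input chromatin that was not precipitated, with 2 reactions in each. No group carried a mutation, transgene or injected RNA, and whole embryos were used, so all cell types of the blastula were pooled. Each factor had 1 list of regions found in both reactions and each group had 1 coverage track, so that no error between reactions can be given for any value. Heights are the highest number of overlapping tags within a peak, and levels are given as multiples of the mean of the same track over all sequences. By an estimate from isolated tags, the Smad2 track held 12.6 M tags of 132 bp (M, mega), the input track 19 M tags of the same length and the Eomesa track 12.3 M tags of 39 bp.

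Smad2 carries the Nodal signal, a ligand of the transforming growth factor beta family, from the cell surface to the nucleus, where it acts on genes together with partner factors such as the forkhead protein Foxh1. Eomesa is a T-box transcription factor which is supplied by the mother and acts with Nodal signalling in the formation of endoderm. Genes that encode the core histones lie in large arrays of many near-identical copies in vertebrate genomes, and short reads from such arrays are hard to place.

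For some Smad2 peaks, the tables that accompany the study name a match to the Foxh1 matrix. Those of the stretch are shown first, because 1 of them recurs in both blocks of it, followed by the pair on the rest of the chromosome that recurs as well. Capitals mark AATNNAC, the letters that every site shown has in common (N, any base). The sites are given 5′ to 3′ as the tables print them, on Zv9, and their strand was not given.
Smad2_peak558: gatAATAAACa
Smad2_peak574: gtaAATCCACt
Smad2_peak577: cacAATAAACt
Smad2_peak581: gtaAATCCACt
Smad2_peak588: gtaAATCCACt
Smad2_peak590: agaAATCCACt
Smad2_peak543: tcgAATCAACa
Smad2_peak544: tcgAATCAACa
The same 11 letters stand under 3 peaks of the stretch, 1 in its first block and 2 in its second. Outside the stretch the pair Smad2_peak543 and Smad2_peak544 also has 11 identical letters. On the rest, Smad2_peak542, Smad2_peak555, Smad2_peak556 and Smad2_peak594 have a match as well, with other letters, and are not shown. Most peaks of the stretch have no listed match. Equal numbers of peaks had a match in the 2 parts, so matches made up a smaller share of the 37 peaks of the stretch than of the 17 on the rest. That difference was not tested. The share that the paper reports over all Smad2 peaks was above that of both parts, and nearer to that of the rest. How often the same letters recur among all Smad2 peaks is not given here. A match to these letters is a description of the sequence and not a measured site of binding.

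Smad2 peaks were packed into the stretch. It held 37 of the 54 Smad2 peaks (68.5%) on 3.37% of the 38.5 Mb of the chromosome, 28.5 peaks per Mb with a 95% Poisson interval of 20.1 to 39.3. The other 17 Smad2 peaks lay on 37.2 Mb, 0.457 per Mb (0.266 to 0.732), against 0.636 per Mb over all sequences. In 349 windows as long as the stretch, placed every 100 kb along the rest, the number of Smad2 peaks ranged from 0 to 3.

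Eomesa peaks were not. The stretch held 6 of the 171 Eomesa peaks, 4.62 per Mb (95% Poisson interval 1.7 to 10.1), and the rest held 165, 4.44 per Mb (3.78 to 5.17). The same windows along the rest held a median of 5 Eomesa peaks, with quartiles of 3 and 8 and a range of 1 to 14, so that the 6 peaks of the stretch were inside the usual range. The Poisson intervals cover counting only and take the peaks as independent, which neighbouring peaks are not.

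The 37 Smad2 peaks fell into 2 blocks with nothing between them. The first block, 20 peaks from Smad2_peak557 to Smad2_peak576, covered 220 kb from 36105765 to 36325665. The second block, 17 peaks from Smad2_peak577 to Smad2_peak593, covered 58.7 kb from 37345623 to 37404344. The 1.02 Mb between the blocks had no Smad2 peak, although 4 of the 6 Eomesa peaks of the stretch were there. Most of the length of the stretch therefore carried no Smad2 peak, and the 2 blocks held all of them.

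**Figure D1:**
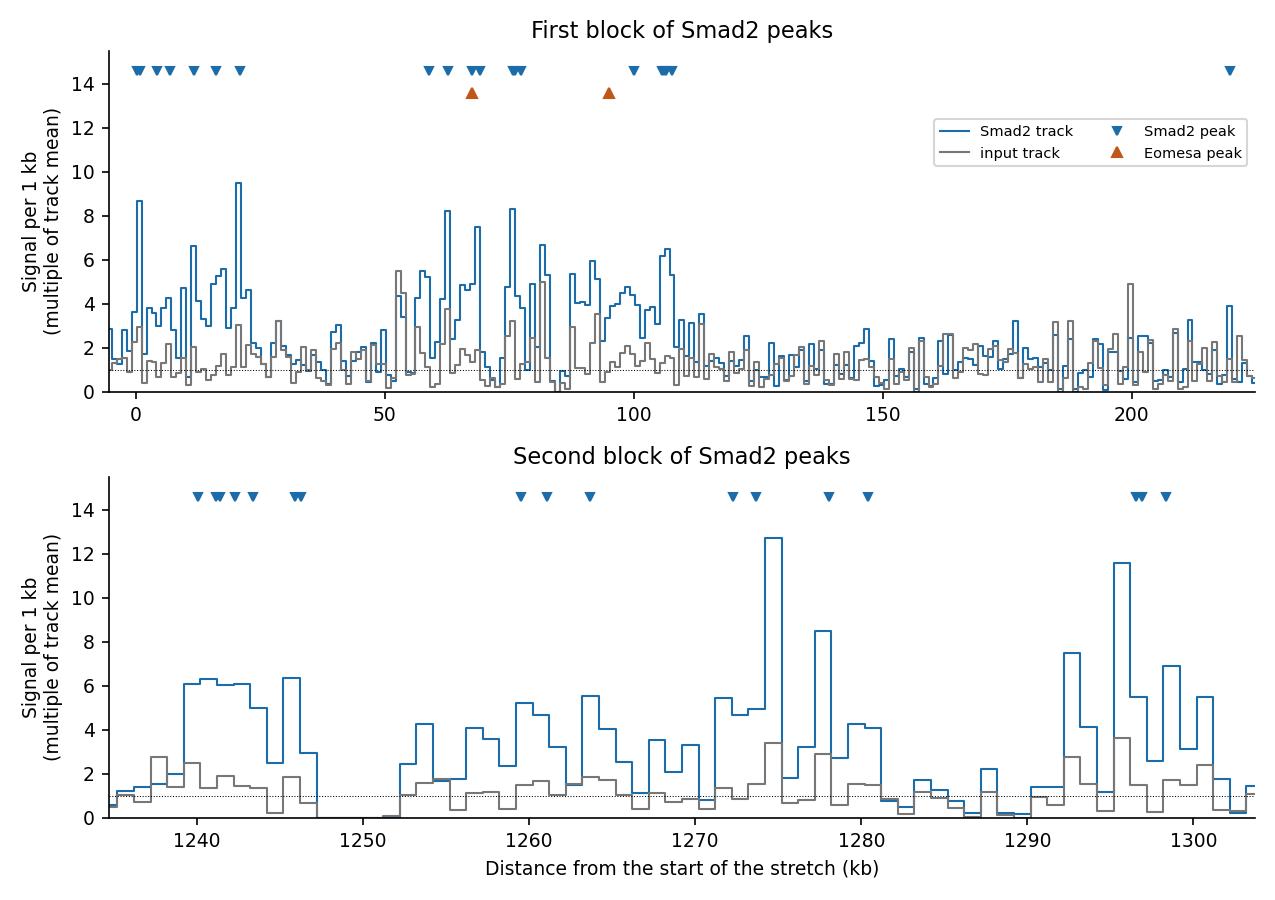
Smad2 and input signal in 1 kb steps (lines, in multiples of the mean of each track, dotted line at 1) against the distance from the start of the stretch in kb, for the first block (upper panel) and the second block (lower panel). Downward triangles are Smad2 peaks, 20 above and 17 below, and upward triangles are the 2 Eomesa peaks of the first block. Within the groups of peaks the Smad2 line lies above the input line in most steps, and not only at the triangles. Its 2 highest steps in the second block, at 12.7 and 11.6, have no triangle.

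Within the blocks the peaks formed 6 groups in which neighbours lay within 10 kb. In the first block these were Smad2_peak557 to Smad2_peak563 (7 peaks on 21.2 kb), Smad2_peak564 to Smad2_peak570 (7 peaks on 18.9 kb) and Smad2_peak571 to Smad2_peak575 (5 peaks on 7.83 kb). In the second block they were Smad2_peak577 to Smad2_peak583 (7 peaks on 6.47 kb), Smad2_peak584 to Smad2_peak590 (7 peaks on 21.4 kb) and Smad2_peak591 to Smad2_peak593 (3 peaks on 2.05 kb). Smad2_peak576 alone stood apart, 112 kb after Smad2_peak575. The median gap inside a group ranged from 0.568 kb in Smad2_peak571 to Smad2_peak575 to 3.41 kb in Smad2_peak557 to Smad2_peak563, and 12.9 to 37.5 kb separated the groups of a block.

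Across the stretch the nearest other Smad2 peak was at a median of 1 kb (quartiles 0.116 and 2.36 kb), and across the rest at 188 kb (146 and 567 kb). Another Smad2 peak within 10 kb was found for 36 of the 37 peaks of the stretch and for 4 of the 17 others, against 22.9% of all 898 Smad2 peaks. This share follows from how the stretch was chosen. Another Smad2 peak within 1 kb was found for 18 of the 37, for 0 of the 17, and for 65 of all 898 peaks. Some of these neighbours were nearly continuous: the gap was 41 bp between Smad2_peak578 and Smad2_peak579, 49 bp between Smad2_peak582 and Smad2_peak583, 71 bp between Smad2_peak568 and Smad2_peak569 and 82 bp between Smad2_peak573 and Smad2_peak574. In these 4 pairs the Smad2 track did not drop below 3 to 4 tags between the summits, so that each pair stood on 1 raised interval.

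**Figure D2:**
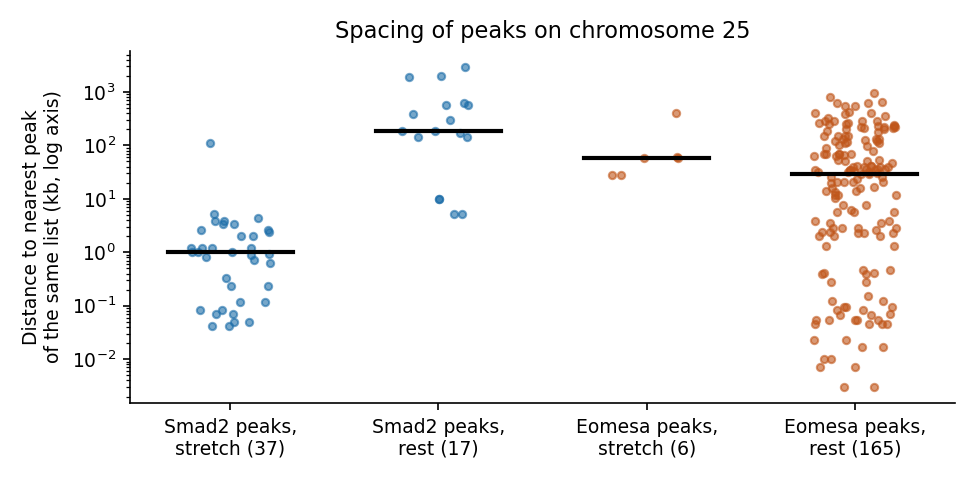
Distance in kb (log axis) from each peak to the nearest peak of the same list on chromosome 25, for Smad2 peaks of the stretch (37), Smad2 peaks of the rest (17), Eomesa peaks of the stretch (6) and Eomesa peaks of the rest (165). Points are peaks, spread sideways only to be seen, and bars are medians, which were 1 kb, 188 kb, 57.8 kb and 28.8 kb.

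The edges of the stretch follow from how it was chosen, so the gaps beside it are a description. Its first member, Smad2_peak557, had a height of 22 tags in Smad2 and 15 in input, and the peak before it, Smad2_peak556, lay 392 kb away with 40 tags in Smad2 and 12 in input. Its last member, Smad2_peak593, had 26 tags in Smad2 and 11 in input, and the peak after it, Smad2_peak594, lay 608 kb away with 28 tags in Smad2 and 17 in input. Smad2_peak594 was the last Smad2 peak of the chromosome.

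Against all Smad2 peaks, those of the stretch were of ordinary height. Their Smad2 heights had a median of 16 tags (quartiles 13 and 21, range 2 to 31, 37 peaks), those of the rest 17 tags (11 and 24, range 9 to 44, 17 peaks), and those of all 898 peaks 16 tags (12 and 26). The ranges overlap widely, and only the rest held peaks of 40 tags or more. The rest was itself mixed. Its 7 peaks that shared bases with an Eomesa peak had a median of 24 tags, and its 10 lone peaks 11.5 tags, lower than the 16 tags of the 36 lone peaks of the stretch. All 543 lone Smad2 peaks had a median of 13 tags (quartiles 11 and 17).

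The tallest peak of the stretch was Smad2_peak565 (36168244 to 36168714) in the second group, with 31 tags in Smad2 (95% Poisson interval 21.1 to 44), 19 in input and 5 in Eomesa. It was also the member with the most input, and its Smad2 level was 2.03 times its input level. In the first group the tallest was Smad2_peak561 with 24 tags in Smad2, 14 in input and 4 in Eomesa. In the third it was Smad2_peak571 with 22 tags in Smad2, 15 in input and 2 in Eomesa. The intervals of these heights overlap, so the order among them is not resolved by the counts.

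In the second block the tallest peaks were Smad2_peak580 with 19 tags in Smad2, 9 in input and 4 in Eomesa, Smad2_peak587 with 26, 13 and 3, and Smad2_peak593 with 26, 11 and 4. Each leads 1 of the groups of that block. The order of the groups by their leading peak was again within counting error, with Poisson intervals of 11.4 to 29.7 tags at Smad2_peak580 and 17 to 38.1 tags at the other two.

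Very narrow regions were listed, on this chromosome, only in the stretch: 4 of its 37 Smad2 peaks were under 100 bp, against 0 of the 17 others and 37 of all 898. All of them were lone peaks. Among lone peaks they were 4 of 36 in the stretch (11.1%), 0 of 10 in the rest and 37 of all 543 (6.81%). With 10 lone peaks on the rest, such a difference is not resolved. Smad2_peak560 spanned 31 bp with 6 tags in Smad2 and 7 in input. Smad2_peak568 spanned 67 bp with 8 tags and 2 in input, and Smad2_peak573 spanned 32 bp with 9 tags and 5 in input. Smad2_peak591 spanned 12 bp with 2 tags in Smad2 and 0 in input, a height that 3 of all 898 peaks have and none is below. At 2 tags the Poisson interval of 0.242 to 7.22 includes the mean of the Smad2 track, 1.18 tags. Of these 4, Smad2_peak568 and Smad2_peak573 lay within 82 bp of a wider neighbour, and Smad2_peak591 lay 116 bp before Smad2_peak592.

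Over all their peaks, the stretch and the rest differed little in width. Peaks of the stretch had a median width of 343 bp (quartiles 220 and 453, range 12 to 635) and those of the rest 296 bp (202 and 480, range 148 to 547). At 50% of their height the Smad2 humps were 225 bp wide in the stretch (quartiles 165 and 340) and 190 bp in the rest (170 and 280), and 195 bp over all 898 peaks. The quartiles overlap.

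A larger difference lay beside the peaks. At 500 to 1500 bp from the summit, outside any listed Smad2 peak, the Smad2 track had a median of 4.48 tags in the stretch (quartiles 3.14 and 5.49, range 0.782 to 10.1) and 0.938 tags in the rest (0.537 and 1.17, range 0.12 to 2.15). These flanks reached at least 3 tags at 29 of the 37 peaks of the stretch, at 0 of the 17 others and at 125 of all 898 Smad2 peaks (13.9%). The height of a peak was thus a median of 3.82 times its flank in the stretch (quartiles 2.29 and 5.65), 22.4 times in the rest (11.2 and 37.2) and 13.3 times over all 898 peaks (7.88 and 23.8). Among lone peaks the medians were closer, 3.91 times in the stretch (2.48 and 5.97) and 11.3 times in the rest (9.38 and 16.2). Input was raised beside the peaks by much less, with medians of 2.1 tags in the stretch and 1.07 tags in the rest.

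Averaged over peaks, the Smad2 track at the summit was 13.7 ± 0.913 times its mean in the stretch (standard error over 37 peaks) and 16.4 ± 2.16 times in the rest (17 peaks). At 1 to 2 kb from the summit it was still 3.96 ± 0.253 times its mean in the stretch and 0.838 ± 0.144 times in the rest. Input at the summit was 4.08 ± 0.384 times its mean in the stretch and 3.58 ± 0.597 times in the rest, and at 1 to 2 kb 1.35 ± 0.0806 and 0.69 ± 0.102 times. Peaks of the same group lie within each other's windows. The level beside the summits of the stretch therefore takes in neighbouring peaks, which the choice of the stretch favours. With every position within 500 bp of a Smad2 peak left out, Smad2 averaged 2.06 times its mean over the blocks and 1.01 times over the rest. For the same reason the errors are too small, and they describe sites and not embryos.

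**Figure D3:**
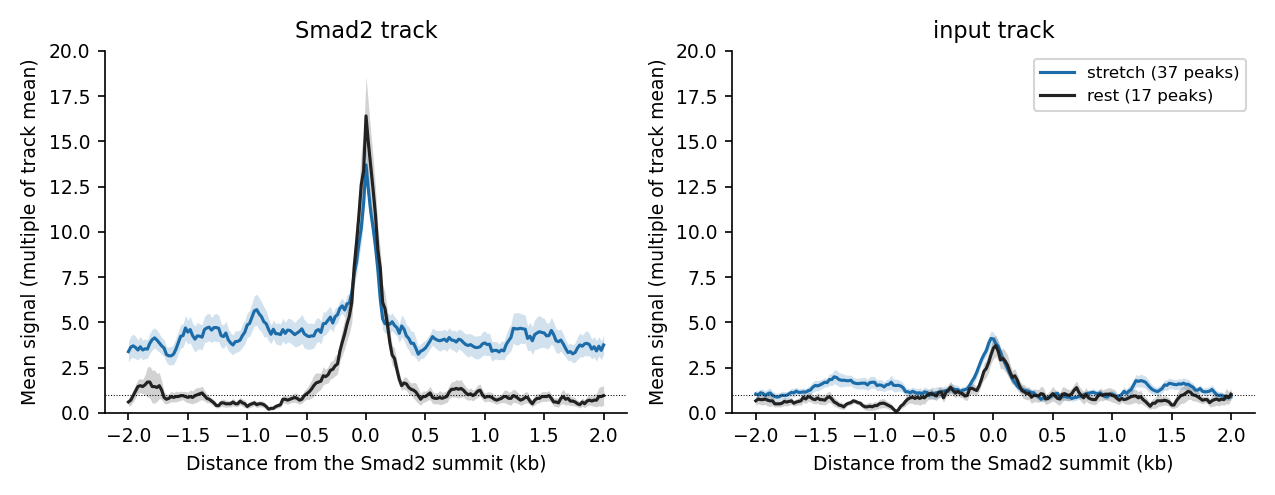
Mean Smad2 (left) and input (right) signal, in multiples of the mean of each track (dotted line at 1), against the distance from the Smad2 summit in kb, for the 37 peaks of the stretch and the 17 of the rest. Shading is the standard error over peaks. The Smad2 summits are alike, but beside them the Smad2 line stays near 4 times the mean in the stretch and near 1 in the rest. Input at 1 to 2 kb differs less, at 1.35 times its mean in the stretch and 0.69 times in the rest. Neighbouring Smad2 peaks, which are frequent in the stretch by its choice, are included in these means.

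The blocks as a whole were raised in Smad2. In the second block Smad2 was on average at 3.35 times the mean of its track and input at 1.1 times, a ratio of 3.04. With every position within 500 bp of a Smad2 peak left out, the ratio was still 2.66 over the 40.9 kb that were left. The first block averaged 2.31 times in Smad2 and 1.31 times in input, a ratio of 1.77, and 1.55 beyond 500 bp from its peaks. It was uneven, with a ratio of 2.25 from Smad2_peak557 to Smad2_peak575 and of 1.18 over the 112 kb from there to Smad2_peak576.

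The interval between the blocks had no such excess. There Smad2 averaged 1.35 times its mean and input 1.44 times, a ratio of 0.936. In the 200 kb before the stretch the ratio was 1.07 and in the 200 kb after it 1.02, and over the whole rest of the chromosome 0.993. The excess thus lay in the second block and in parts of the first block up to Smad2_peak575. From 24.7 to 55.7 kb from the start of the stretch, between Smad2_peak563 and Smad2_peak564, Smad2 was near input in most 1 kb steps. At 28.7 kb, for example, Smad2 and input were at 3.21 and 3.23 times their means, although at 36.7 kb they were at 1.36 and 0.642 times.

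Windows of 50 kb gave the scale of this. Over 26140 windows on all sequences outside both blocks, with input of at least 0.5 times its mean, the ratio of Smad2 to input had a median of 1.02 (quartiles 0.946 and 1.09) and a highest value of 2.48. None reached the ratio of the second block, and 9 (0.0344%) reached that of the first. Of the 740 such windows on chromosome 25 none reached either, the highest being 1.37. The blocks were chosen for their Smad2 peaks, so their rank among windows is a description. The source of the excess was not tested.

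Not all of the Smad2 signal of the blocks was listed as peaks. Of 1 kb bins of the chromosome, the top 1% began at 3.81 times the mean of the Smad2 track. Of the 67 such bins within the blocks, 35 overlapped no Smad2 peak. With or without a Smad2 peak, bins of the top 1% were 20.5% of the first block and 37.9% of the second, against 0.793% of the rest. By input, bins of the top 1% made up 1.37% of the first block and none of the 58 whole bins of the second.

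The strongest example was the bin from 37380001 to 37381000, between Smad2_peak588 and Smad2_peak589. It had a highest value of 29 tags in Smad2 and 15 in input, and its mean of 12.7 times the Smad2 track ranked 3 among all bins of chromosome 25. The bin from 37401001 to 37402000, just before Smad2_peak591, was its near equal, with 29 tags in Smad2, 15 in input and 11.6 times the mean, and ranked 4. Both were taller than all listed peaks of the stretch but Smad2_peak565. These bins were picked out after their values were seen.

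Input was present under all peaks but 1. In the stretch the input height had a median of 9 tags (quartiles 6 and 12, range 0 to 19), in the rest 7 tags (4 and 9, range 2 to 17) and over all 898 peaks 8 tags (5 and 10.8). Summed over peaks, Smad2 was 2.94 times input in the stretch, 3.87 times in the rest and 3.9 times over all 898. Summed over lone peaks only, it was 2.95 times in the stretch and 3.15 times in the rest, so most of that difference goes with the shared peaks. Among the groups of the stretch this ratio ran from 2.8 for Smad2_peak577 to Smad2_peak583 to 3.81 for Smad2_peak591 to Smad2_peak593. At single peaks it was lowest at Smad2_peak560 (1.21) and highest at Smad2_peak568 (8.7), both of them narrow regions with few tags.

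**Figure D4:**
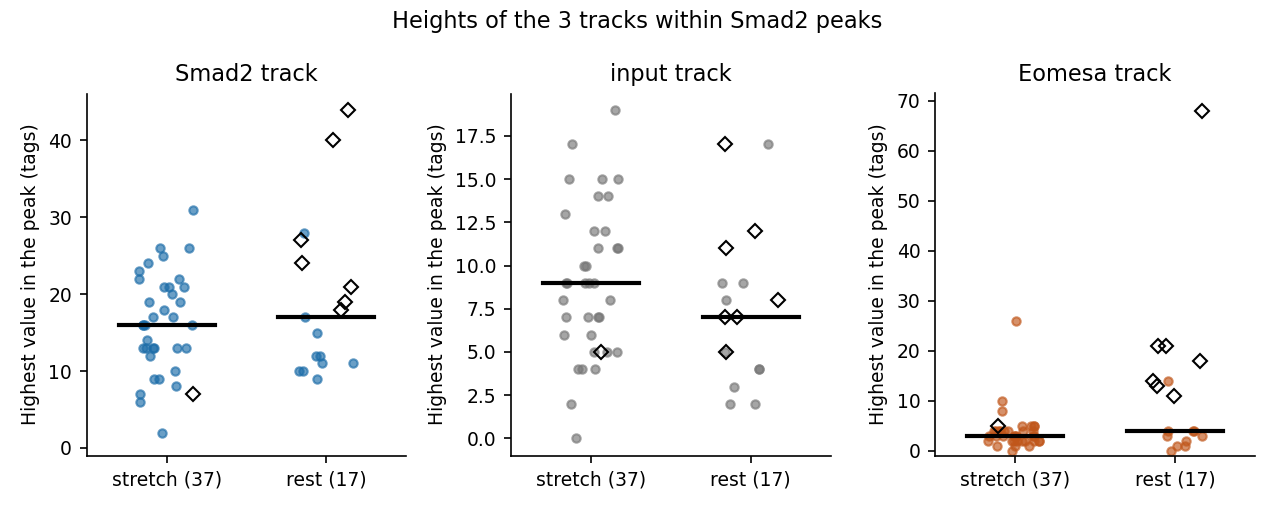
Highest value in tags of the Smad2, input and Eomesa tracks (left to right) within each Smad2 peak of the stretch (37) and of the rest (17). Filled points are lone Smad2 peaks, open diamonds are those that share bases with an Eomesa peak, 1 in the stretch and 7 in the rest, and bars are medians. Smad2 heights of both parts overlap with medians of 16 and 17 tags, and in the Eomesa panel the diamonds of the rest stand above all lone peaks but Smad2_peak576 and Smad2_peak541.

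Smad2 peaks of the stretch rarely met Eomesa. Only Smad2_peak566 shared bases with an Eomesa peak, 1 of 37 or 2.7% (95% Wilson interval 0.479 to 13.8), against 7 of 17 in the rest or 41.2% (21.6 to 64) and 39.5% of all 898 Smad2 peaks. Low sharing is in part what defined the stretch, since it was bounded by runs of lone peaks, so no test was made of it. The 7 include Smad2_peak543 and Smad2_peak544, which have a repeated profile and may not be separate sites. In the second block 0 of 17 were shared, and the nearest Eomesa peak was 33.5 to 69.4 kb away. An Eomesa peak within 10 kb was found for 8 of the 37, all of them in the first block. It was found for 8 of the 17 in the rest and for 53.1% of all 898, counts that include the shared peaks. Among lone peaks it was found for 7 of 36 in the stretch (19.4%), 1 of 10 in the rest and 22.5% of all 543. By this measure the stretch was near the share of all lone peaks.

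The only shared site of the stretch was weak in every track. Smad2_peak566 (36173165 to 36173300) had 7 tags in Smad2, 5 in Eomesa and 5 in input, and Eomesa_peak4086 within it spanned 39 bp (36173212 to 36173250) with 3 tags in Eomesa, 5 in Smad2 and 3 in input. The exact Poisson interval of the 3 tags, which covers counting error only, was 0.619 to 8.77 tags. The tallest Eomesa signal under a Smad2 peak of the stretch was instead at Smad2_peak576 (36325236 to 36325665), with 26 tags in Eomesa, 13 in Smad2 and 9 in input. No Eomesa peak is listed there, and the nearest one is 124 kb away. The lists hold only regions found in both reactions, while the track does not tell the reactions apart.

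Under the remaining Smad2 peaks of the stretch the Eomesa height was low, with a median of 3 tags over all 37 (quartiles 2 and 4). It passed 5 tags at Smad2_peak557 with 10 tags, at Smad2_peak574 with 8 tags and at Smad2_peak576. As a mean over the peak the Eomesa level was 2.2 times the mean of its track in the stretch (quartiles 1.42 and 4.24) and 1.87 times at the 10 lone peaks of the rest (0.771 and 4.79). Lone peaks of both parts therefore overlapped in Eomesa, and the 7 shared peaks of the rest stood apart from them at a median of 29.9 times.

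The 6 Eomesa peaks of the stretch were smaller than most. Their heights had a median of 9 tags (range 3 to 19), against 14 tags in the rest (quartiles 9 and 21, range 3 to 78, 165 peaks) and 14 tags over all 6378. Besides Eomesa_peak4086 they were Eomesa_peak4087 with 10 tags in Eomesa, 9 in Smad2 and 2 in input, and Eomesa_peak4088 with 6, 2 and 2. The other three were Eomesa_peak4089 with 19 tags in Eomesa, 7 in Smad2 and 9 in input, Eomesa_peak4090 with 8, 7 and 8, and Eomesa_peak4091 with 11, 7 and 7. None reached 20 tags, which 46 of the 165 on the rest did (27.9%) and 31.8% of all 6378, and with 6 peaks such a difference is not resolved.

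Eomesa_peak4089, between the blocks, was the widest of them (448 bp). Raw heights of the Eomesa and input tracks are not comparable, as tag length and depth differ. As multiples of the mean of each track, all of them lay above input, which follows in part from their being called against input. The mean of the Eomesa track was only 0.34 tags, so a few tags make a high multiple. Eomesa and input were at 22.5 and 2.79 times at Eomesa_peak4089 and at 17.3 and 0.392 times at Eomesa_peak4087. At Eomesa_peak4088, the lowest in Eomesa, they were at 5.1 and 1.13 times. The Eomesa peaks of the stretch also stood singly, at a median of 57.8 kb from the next (lowest 27.5 kb). Another Eomesa peak within 10 kb was found for 63 of the 165 on the rest (38.2%) and for 35.4% of all 6378. With 6 peaks in the stretch such a difference is not resolved.

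On the rest of the chromosome the Smad2 peaks were few and spread out. None lay in the first 8.89 Mb, where there were 40 Eomesa peaks, and none in the 13.4 Mb between Smad2_peak553 and Smad2_peak554 (21776476 to 35186203), where there were 46. The tracks were not empty there: Smad2 signal was 1.06 times the track mean in the former and 0.924 times in the latter, and input signal 1.13 and 0.91 times. Eomesa peaks lay in these intervals at 4.5 and 3.43 per Mb, near the 4.52 per Mb of all sequences.

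The 7 shared peaks of the rest included its tallest. Smad2_peak552 (18820488 to 18820783) had 44 tags in Smad2, 18 in Eomesa and 17 in input. It is listed at dusp6, a phosphatase that switches off MAP kinase and is induced by fibroblast growth factor signalling. Smad2_peak556 followed with 40 tags in Smad2, 11 in Eomesa and 12 in input, and no gene is given for it here. Smad2_peak554 and Smad2_peak555, 5.27 kb apart, had 24 and 21 tags in Smad2. In Eomesa the former reached 68 tags and the latter 13. Eomesa_peak4074, over Smad2_peak554, was the second tallest Eomesa peak of the chromosome.

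The remaining shared peaks were Smad2_peak547 with 18 tags in Smad2, 14 in Eomesa and 8 in input, and the pair Smad2_peak543 and Smad2_peak544. The latter is listed at mesp2, named mespab by RefSeq, a basic helix-loop-helix gene of somite segmentation. It had 27 tags in Smad2, 21 in Eomesa and 7 in input. Smad2_peak543, 294 kb before it, had 19, 21 and 5. The 2 have a repeated profile, described below, so the shared peaks of the rest may not all be separate sites. Shared peaks were wider, with a median of 510 bp (range 296 to 547) against 214 bp (148 to 443) at the 10 lone peaks of the rest.

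Of those lone peaks, Smad2_peak594 was the tallest with 28 tags in Smad2, 4 in Eomesa and 17 in input. Smad2_peak549 with 17 tags and Smad2_peak550 with 12 tags, 9.86 kb apart, are listed at tead1a, a partner of the Hippo effector Yap. Smad2_peak541 is listed at unc45a, a chaperone of myosin, and MAN2A2, a mannosidase of the Golgi, and had 12 tags in Smad2 and 14 in Eomesa with no Eomesa peak nearer than 143 kb. Smad2_peak545 at ndrg4 and Smad2_peak546 at ca5, a carbonic anhydrase, had 10 and 11 tags, and Smad2_peak553 at rad52, a gene of DNA repair, had 11 tags. The other three, Smad2_peak542, Smad2_peak548 and Smad2_peak551, had 10, 15 and 9 tags. Apart from Smad2_peak594 these peaks had 9 to 17 tags, within the range of 2 to 31 tags in the stretch.

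Genes listed at peaks of the stretch included histone genes. Those that could be identified as such were HIST4H4, HIST1H4D and HIST1H4H, which encode histone H4, hist2h3ca1 and, under the names zgc:158629 and zgc:113983, genes that RefSeq calls hist2h3c and h3c13a, which encode histone H3, and zgc:110434 and zgc:173652, which RefSeq calls hist1h2a2 and hist1h2a3 and which encode histone H2A. Such names were given in both blocks, zgc:110434 for example at Smad2_peak557, Smad2_peak571 and Smad2_peak577. RefSeq places this gene and hist2h3ca1 on chromosome 7. None of these histone names is listed at Smad2_peak564 to Smad2_peak570, at Smad2_peak576 or at Smad2_peak591 to Smad2_peak593. Most of the other names carry no identity in the sources used here. Among those that do is kif15, a kinesin of the mitotic spindle, at Smad2_peak564, with 18 tags in Smad2, 1 in Eomesa and 5 in input. Of the 35 names listed in the stretch, 13 were matched in RefSeq (assembly GRCz12tu), and RefSeq places 9 of these on chromosome 25 and the others on another chromosome. The paper takes genes whose start is within 10 kb of a peak, so neighbouring peaks can list the same gene by distance alone. A gene named at distant peaks or placed on another chromosome may have near-identical copies that share reads. Which copy lies under a peak is therefore uncertain.

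Reads that fitted 2 places were reported at both, so that a duplicated sequence appears in the tracks as a repeat of the same tag edges. A first comparison asked for the same shape over 300 bp to each side of the summit (r of at least 0.9 in both Smad2 and input). It was met by 15 of the 37 peaks of the stretch (40.5%), by 9 of the 17 others (52.9%) and by 58.4% of all 898 Smad2 peaks. The share in the stretch was not above that of all peaks.

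A second comparison, added after the data were seen, used the steps of the tracks, that is the change of the signal over 10 bp, which keeps the position of each tag edge (r of at least 0.8 in both tracks). It was met by 2 of the 37 peaks of the stretch, by 2 of the 17 others and by 3.56% of all 898 peaks. The 2 in the stretch were Smad2_peak588 (37379239 to 37379665) and Smad2_peak592 (37402426 to 37402884), 23.2 kb apart, and they matched when 1 of them was turned around, with r of 0.936. The 2 in the rest were Smad2_peak543 and Smad2_peak544, the pair with the same Foxh1 letters, which matched in the same direction with r of 0.823. No other peak on the chromosome came above 0.608.

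Smad2_peak588 and Smad2_peak592 were nearly the same profile. Their heights were 23 and 21 tags in Smad2 and 10 and 9 tags in input. Over 161 positions within 400 bp of the summits, no value differed by more than 2 tags in either track, and 62 positions in Smad2 and 96 in input were equal.

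**Figure D5:**
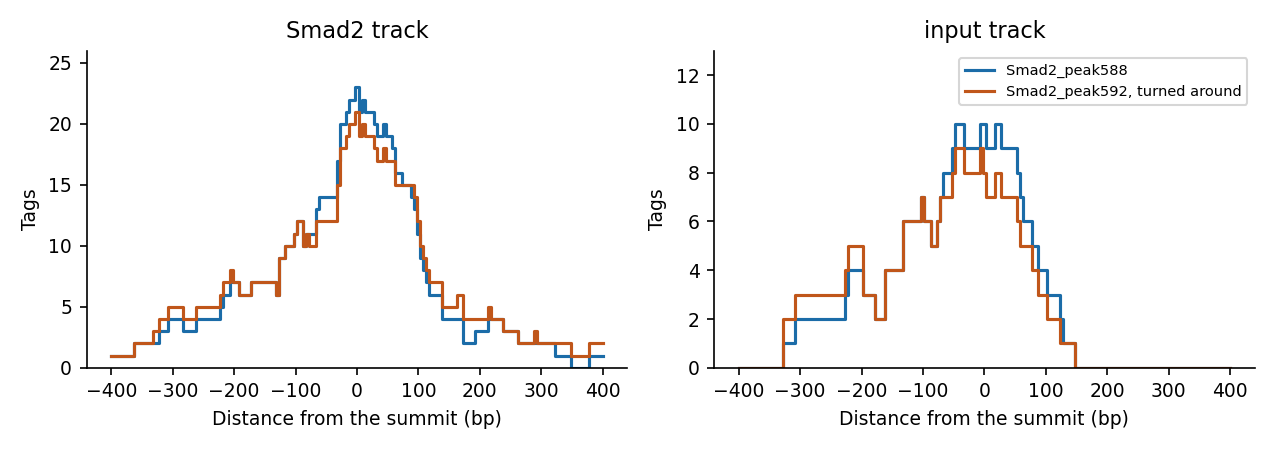
Tags in the Smad2 (left) and input (right) tracks within 400 bp of the summits of Smad2_peak588 and of Smad2_peak592, the latter turned around. Both lines rise and fall at the same distances in each panel and differ by at most 2 tags.

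The match went beyond this pair. When the steps around each of the 54 Smad2 peaks were sought along all sequences in both directions, Smad2_peak589 (37383717 to 37383924) had an inverted match centred on 37398296, 14.5 kb away, with r of 0.81, where no Smad2 peak is listed. Smad2_peak591 had an inverted match at 37379826, 22.5 kb away, with r of 0.875, next to Smad2_peak588. Its summit is 390 bp from that of Smad2_peak592, so their windows overlap and this match is in part the one already described. The bins of 12.7 and 11.6 times the mean lie at mirrored places on the same axis. Smad2_peak587 and Smad2_peak593 lie within 30 bp of mirrored places too, but their steps had r of 0.497 and were not a match. In the tracks, a part of the second block thus appears in 2 opposite copies, and the peaks in them cannot be counted as separate sites. The sequences of these places were not compared. A Foxh1 match is listed at Smad2_peak588 but none at Smad2_peak592.

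Beyond that, no copy was found. The same search gave a match for 4 of the 37 peaks of the stretch, all in the second block, and for Smad2_peak543 and Smad2_peak544 alone among the 17 others. Of the 4, Smad2_peak591 is not separate from Smad2_peak592. None of the matches was on another chromosome. No peak of the first block matched any other place, and neither did Smad2_peak574 and Smad2_peak581, whose 11 letters equal those of Smad2_peak588. Reads with more than 2 places are not in the tracks, so sequence with more copies was not tested by this search.

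Positions without signal were fewer in the stretch. In Smad2 36.2% of its positions were at 0 and in input 35.2%, against 48.3% and 44.7% in the rest. In Eomesa the shares were 79.3% and 84.2%. Positions at 0 in all 3 tracks made up 21.3% of the stretch and 30.5% of the rest. The longest run of them in the stretch was 4.84 kb (37352936 to 37357780), between the groups Smad2_peak577 to Smad2_peak583 and Smad2_peak584 to Smad2_peak590, and the longest in the rest 14 kb.

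Eomesa peaks of the rest also held repeats. By the same steps, 21 of the 165 Eomesa peaks of the rest matched another (12.7%), against 3.2% of all 6378. In the stretch 0 of the 6 did, and 6 peaks are too few to tell that share from either of these. The clearest were Eomesa_peak4077, Eomesa_peak4078 and Eomesa_peak4079, which recur as Eomesa_peak4080, Eomesa_peak4081 and Eomesa_peak4082. The widths of 640, 387 and 399 bp and the heights of 26, 17 and 26 tags are the same in both sets, and input heights were 22, 10 and 9 tags in both. These peaks lie at 35202847 to 35206660 and again at 35230448 to 35234261, before the stretch. Members of such a set are not separate repeats. Likewise Eomesa_peak3940 to Eomesa_peak3942 have gaps of only 0.045 and 0.071 kb and matched peaks of the set Eomesa_peak3943 to Eomesa_peak3945. The 21 peaks thus stand for fewer repeated places.

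Other repeated pairs on the rest were Eomesa_peak3936 and Eomesa_peak3937 (r of 0.88), Eomesa_peak3942 and Eomesa_peak3945 (0.96), Eomesa_peak4024 and Eomesa_peak4025 (0.84) and Eomesa_peak4049 and Eomesa_peak4051 (0.86). Near mesp2, Eomesa_peak3971 and Eomesa_peak3974 matched at 0.87, and Eomesa_peak3969 and Eomesa_peak3972, which lie over Smad2_peak543 and Smad2_peak544, came to 0.78, below the limit of 0.8. Both lists thus hold a repeated profile there, but the Eomesa match that met the limit lies 6.73 and 6.65 kb from the Smad2 pair. The sequences were not compared. Eomesa_peak3978, with 60 tags, matched Eomesa_peak4659 elsewhere (0.91).

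Of the Eomesa peaks of chromosome 25, 8 of 171 shared bases with a Smad2 peak. In the stretch this was 1 of 6 (16.7%, 95% Wilson interval 3.01 to 56.4) and in the rest 7 of 165 (4.24%, 2.07 to 8.5), against 5.63% of all 6378. The intervals overlap. The 3 tallest Eomesa peaks of the rest were Eomesa_peak4084 (35621582 to 35622863) with 78 tags in Eomesa, 12 in Smad2 and 42 in input, Eomesa_peak4074 with 68, 24 and 12, and Eomesa_peak3978 with 60, 22 and 15. The first is at the highest value of the Eomesa track and had the most input of all Eomesa peaks of the chromosome. Heights near 78 tags are limited, since that is 2 tag lengths. All 3 lie outside the stretch.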

How the data were processed

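ChIP-seq libraries of 6 samples (2 reactions each of Smad2, Eomesa and input) were grouped by their titles. The authors mapped reads to Zv9 with Bowtie (version not given in the sources used here), reporting reads with up to 2 places at both, and ran MACS with the paired input as control to call peaks. Regions found in both reactions of a factor were kept. The deposited lists hold positions and the width of each region in bp, and carry no height or score. The deposited coverage tracks are the signal that MACS wrote, the number of shifted tags over every 5 bp, not scaled to depth. Whether tags of 1 reaction or of both make up a track, and which input was used, was not given in the sources used here. Tags at 1 position were limited, as the highest Eomesa value, 78, is 2 tag lengths of 39.0 bp. PCR copies cannot be told apart, so intervals cover counting error only.

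Peaks were taken as shared when at least 1 bp overlapped and called lone otherwise. Positions are printed counting from 1. Height was the highest value of a track within a peak. Tag length came from isolated runs at 1 tag. Shares have 95% Wilson and counts 95% Poisson intervals. Profiles were compared over 300 bp to each side of the summit, with shifts of at most 100 bp for shapes and 200 bp for steps, and peaks with summits within 800 bp were not paired. One Eomesa region of the rest, Eomesa_peak4009, has a width of 0 bp and was kept. Gene names are those listed by the study, 21 of 44 of which were matched in RefSeq. Peaks are not replicates of a condition, and no test was made. The members, the stretch, the lists and the rule for named peaks were chosen with earlier results of these data known. All Smad2 peaks of the rest could be named. In the stretch, the named peaks were the tallest of each group, the best repeated profiles, those shared with Eomesa and those under 100 bp, with others named beside a value that concerns them. Of the Eomesa peaks those named were the ones in the stretch, the shared ones and the 3 tallest elsewhere, and repeated pairs and bins without a peak were named after their values were seen. Functions were tested on simulated data. Python 3.11 (numpy, pandas, scipy, numba and matplotlib) was used.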

Additional observations from a re-analysis of the deposited data

How the results depend on the processing

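No replicate could be left out and no test made, as each group has 1 track and each factor 1 list. No paired analysis was possible because lists and tracks carry no replicate numbers. With 54 peaks, heights of 2 to 44 tags and counting intervals as wide as the differences, the order of single peaks is not resolved, and Eomesa heights are limited near 78 tags. For 13 results, 40 alternatives were computed, of which 30 stayed within 1.5 times the main value (or within its interval, for shares) and 10 did not. The density of Smad2 peaks in the stretch was 62.4 times that of the rest, and 42.1 to 66.8 times under its alternatives, 42.1 when peaks within 1 kb were counted as 1. The share of Smad2 peaks of the stretch that met Eomesa was 2.7%, and it was 0.0% when at least 50% of the Smad2 peak had to be covered or when only taller Eomesa peaks counted, and 21.6% for an Eomesa peak within 10 kb. The median Eomesa level at Smad2 peaks of the stretch was 0.405 times that of the rest as a mean over the peak, 0.75 times by its highest value, and 1.16 times among lone peaks only, an alternative chosen after seeing the data, so that this difference goes with the shared peaks of the rest. The number of peaks of the stretch with a repeated profile was 15, and was 28 at r of 0.8, 8 at r of 0.95, 30 by Smad2 alone, 31 by input alone and 2 by steps, chosen after seeing the data. Steps, unlike shapes, use the place of each tag edge.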
